A study of Mus musculus with 5 samples.

Results

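Transcripts of 3 tissue inhibitors of metalloproteinases (Timp3, Timp1 and Timp2), 2 matrix metalloproteinases (Mmp2 and Mmp14) and 2 related metalloproteinases (Adamts1 and Adam19) were followed in mouse fibroblasts that overexpress the human receptor tyrosine kinase HER-2/NEU (ERBB2), set against the untransfected parental line. These 7 genes, of 9669 genes with a probe of their own, are represented by 10 of the 20205 spotted cDNA probes. A probe counted for a gene when the platform annotation gave it exactly 1 gene symbol. The genes were chosen with the cell line ratios of these same arrays known, so their ratios are given as a description, and the p-values of that contrast support nothing about them.

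The Erbb2-transfected line, called HER-2/NEU+ in the labels, is NIH3T3 carrying human HER-2/NEU driven constitutively by the cytomegalovirus (CMV) promoter, and the other line is NIH3T3 itself, an immortalised mouse fibroblast line, without the transgene. Both lines were grown in the same serum-containing medium with no further treatment. Both were hybridised together on each of 5 two-colour arrays, of which A1, A2 and A3 came from preparation A and B1 and B2 from preparation B. Erbb2-transfected cDNA carried Cy5 on A3 and B2 and Cy3 on A1, A2 and B1. No vector-transfected line was among the samples, so effects of the receptor, of transfection and of the derivation of the line cannot be told apart. The labels do not say whether the transfected line was 1 clone or whether preparations A and B came from different cultures, so p-values measure only how these arrays differ, which may be technical variation.

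Matrix metalloproteinases are zinc enzymes, secreted or bound to the cell membrane, that cleave collagens and other proteins around the cell, and most are made as inactive proenzymes. TIMPs are small secreted proteins that bind the active site of these enzymes. TIMP2 also has a role in activation, because MMP14 at the cell surface uses it to capture the proenzyme of MMP2. TIMP3 stays bound to the matrix and inhibits members of the ADAM and ADAMTS families as well.

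Each value is the log2 of the ratio of Erbb2-transfected to NIH3T3 cells, so that a value below 0 means a lower level in Erbb2-transfected cells. The direction is likely rather than settled, because the sources used here do not name the numerator, and Cy5 over Cy3 was taken since the labels list Cy5 as channel 1 throughout. Read the other way round, every sign below would turn. Only ratios were deposited, so the amount of one transcript cannot be set against that of another. A gene's value on an array is the mean of its probes. Its overall value is the mean ± SD of both preparations, in each of which the dye orientations were averaged first. The limma test against 0 was run on the 4892 features, genes or unnamed probes, with a value in both dye orientations of both preparations.

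Among the inhibitors, Timp3 was far lower in Erbb2-transfected cells, while Timp1 lay slightly below 0 and Timp2 slightly above it. On A1, A2, A3, B1 and B2, Timp3 had values of -4.06, -3.20, -3.47, -2.01 and -3.26. The 5 values all lay below -2, and B1 was nearest to 0. Overall Timp3 had -3.09 ± 0.65 (SD, n = 2), an 8.53-fold lower level, which ranked 14 from the lowest of the 4892 tested features. Timp3 was read by 3 probes, and all 13 of their values were negative. The first probe ran between -4.26 on A1 and -1.69 on B1, and the second between -3.85 on A1 and -2.10 on B1. The third probe gave -2.89 on A2, and on B1 and B2 it gave -2.23 and -3.50, with A1 and A3 empty. For each of the probes the value on B1 was the one nearest to 0. The median absolute deviation of all values, a measure of how widely an array's ratios spread, was also smallest on B1, at 0.438 against 0.575 to 0.656 on the other arrays. The part of this narrower spread in the Timp3 value was not tested.

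Timp1, a soluble inhibitor known to be inducible by growth factors and phorbol ester, had -0.71 on A1, 0.02 on A2, -0.31 on A3, -0.41 on B1 and -1.12 on B2. Its single probe was below 0 on 4 of 5 arrays and at about 0 on A2. The overall value was -0.54 ± 0.31 (SD, n = 2).

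Timp2, the inhibitor that takes part in MMP2 activation, had 0.58 on A1, 0.76 on A2, 0.14 on A3, 0.02 on B1 and 0.54 on B2. It was above 0 on all 5 arrays, but only just so on B1, and its overall value was 0.34 ± 0.09 (SD, n = 2). Both of its probes had values on 4 arrays. The first had 0.22 on A2, 0.14 on A3, 0.13 on B1 and 0.95 on B2, whereas the second had 0.58 on A1, 1.29 on A2, -0.09 on B1 and 0.13 on B2. The probes thus disagreed on which array was highest, and the SD of the gene does not show that spread. Timp4, the remaining member of the family, lacked a value on A3 and B2, with -0.54 on A1, -0.13 on A2 and -0.47 on B1.

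**Figure D1:**
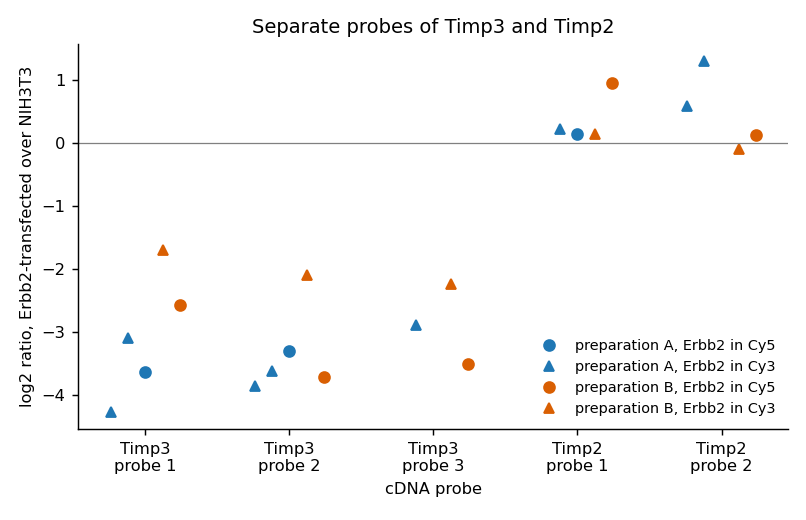
The log2 ratio of Erbb2-transfected to NIH3T3 cells (y axis) for each cDNA probe of Timp3 and Timp2 (x axis). Each point is 1 array, coloured by preparation, with circles for arrays with Erbb2 cDNA in Cy5 and triangles for Cy3. All 13 values of the 3 Timp3 probes lie below 0, with B1 nearest to it, and the 2 Timp2 probes lie between -0.09 and 1.29.

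Of the matrix metalloproteinases, Mmp2, the gelatinase that degrades type IV collagen and denatured collagens, had -1.19 on A1, -0.18 on A2, -1.14 on A3, -0.74 on B1 and -1.53 on B2. All 5 values were negative, and A2 lay nearest to 0. The overall value was -1.02 ± 0.16 (SD, n = 2), a 2.03-fold lower level in Erbb2-transfected cells. Mmp14, the membrane-bound enzyme that activates the MMP2 proenzyme, had a value on B1 alone, at 0.45. With 1 array, in 1 dye orientation, neither an error nor a direction for Mmp14 can be given.

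Adamts1, a secreted protease with thrombospondin repeats that cleaves proteoglycans such as aggrecan and versican, had -0.71 on A1, -0.22 on A2, -1.07 on A3, -1.41 on B1 and -0.91 on B2. All values were below 0, again with A2 nearest to 0, and the overall value was -0.96 ± 0.28 (SD, n = 2), 1.95-fold lower. Adam19, a membrane-anchored sheddase known to process neuregulin, had 1.52 on B1 and no other value. Timp1, Timp2, Mmp2 and Adamts1 each had their highest value on A2, whereas Timp3 was highest on B1 and next highest on A2. The median absolute deviation on A2 was 0.599, within the range of the other arrays.

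**Figure D2:**
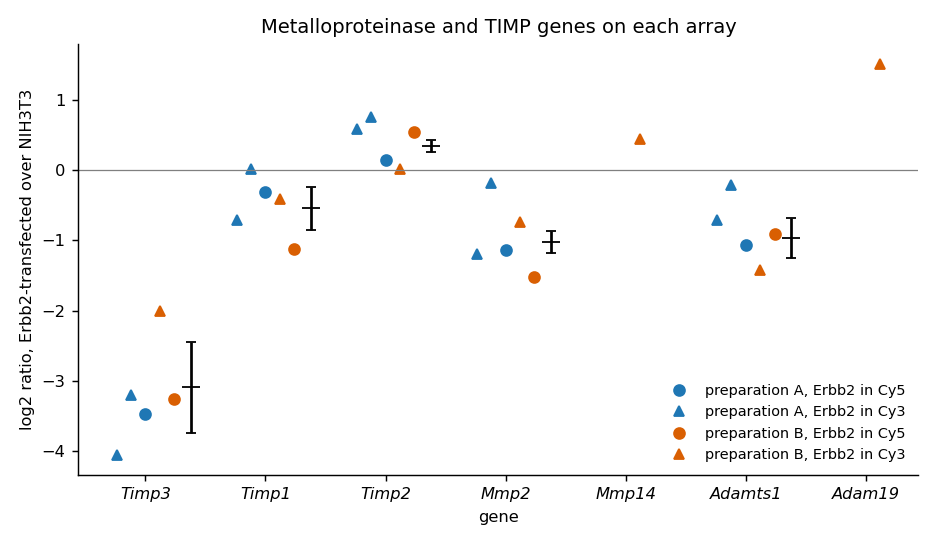
The log2 ratio of Erbb2-transfected to NIH3T3 cells (y axis) for the 7 genes (x axis), with 1 point per array, coloured by preparation, circles for Erbb2 cDNA in Cy5 and triangles for Cy3. Black bars are the mean ± SD of the 2 preparations. Timp3 lies lowest on every array, Mmp2 and Adamts1 lie below 0 on all 5 arrays, and Mmp14 and Adam19 have a single value on B1.

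Of the 5 genes with enough values to enter the fit over all features, 3 lay under its adjusted p of 0.05, all of them lower (Timp3, Mmp2 and Adamts1) and 0 higher, against 6.79% of all 4892 features called in either direction, 4.54% called lower and 2.25% called higher. The choice of the genes used this contrast, so nothing is read from that count.

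The order of the ratios, from the lowest, was Timp3, Mmp2, Adamts1, Timp1 and Timp2. The ranges over arrays of Timp3 and Mmp2 did not overlap, with Timp3 lower by 1.26 to 3.02 on the log2 scale when both were taken on the same array. Mmp2 and Adamts1 overlapped, and Mmp2 was the lower of the pair on 3 of 5 arrays. Adamts1 and Timp1 overlapped as well, and Timp1 was the lower one on 2 of 5 arrays. Timp1 and Mmp2 also overlapped, although Timp1 was higher than Mmp2 on every array, by 0.20 to 0.83. Timp1 and Timp2 met at 0.02 without overlap, and Timp1 was lower than Timp2 on all 5 arrays, by 0.43 to 1.66. Between the inhibitors with the most different ratios, Timp3 was lower than Timp2 by 2.03 on B1 and by 4.64 on A1. The ratio of Timp2 exceeded that of Mmp2 on every array, by 0.76 to 2.07, so Timp2 relative to Mmp2 was higher in Erbb2-transfected cells on all 5 arrays. These differences between genes were not tested, since the genes were chosen on the values they come from.

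Whether the ratios depended on the dye or on the preparation was tested with limma on the 5 arrays, in a fit with terms for cell line, dye and preparation over all 4892 features. Neither term was used in choosing the genes. With Erbb2 cDNA in Cy5, Mmp2 averaged -1.33, and in Cy3 it averaged -0.71. Its dye term was -0.60 with a 95% interval of -1.46 to 0.27 (limma adjusted p = 0.551). Timp3 averaged -3.37 in Cy5 and -2.82 in Cy3, with a dye term of -0.45 and an interval of -1.37 to 0.47 (limma adjusted p = 0.694). Both genes were therefore below 0 in each orientation. Adamts1 had nearly the same mean in Cy5 and in Cy3, at -0.99 and -0.94, and so did Timp2, at 0.34 in both. For Timp1 the means were -0.71 in Cy5 and -0.38 in Cy3. Of the 5 genes, 0 had a dye effect at a limma adjusted p under 0.05 and 0 at an unadjusted p under 0.05, against 0.593% and 13.2% of all features. The interval was -1.13 to 0.57 for the dye term of Timp1, -0.91 to 0.76 for Timp2 and -0.99 to 0.72 for Adamts1. For these 3 genes and for Mmp2 the interval includes dye effects as large as the cell line ratio, and for Timp3 it does not. Over all probes, the turned ratios of arrays with the same dye orientation correlated at r = 0.451 to 0.519. Arrays of opposite orientation correlated at r = 0.174 to 0.379, except for A1 and A3, which correlated at r = 0.542.

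**Figure D3:**
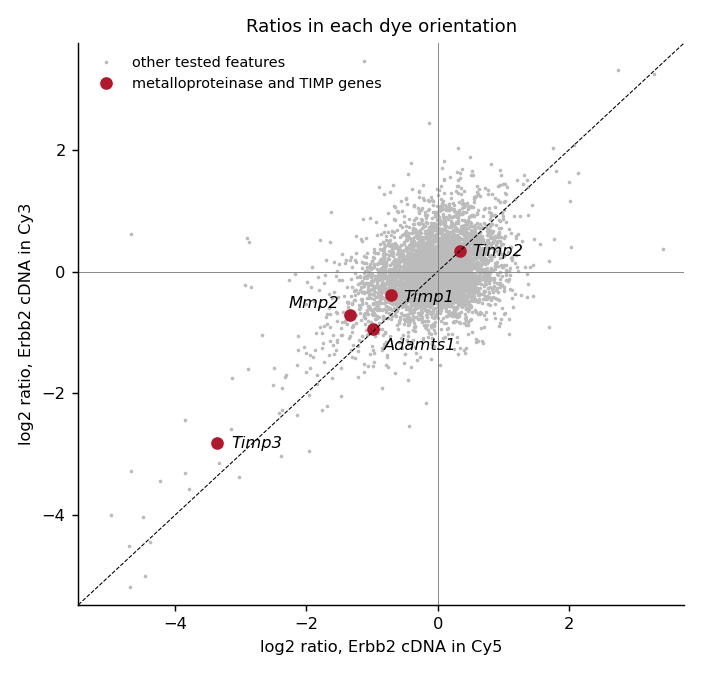
Mean log2 ratio of Erbb2-transfected over NIH3T3 cells with Erbb2 cDNA in Cy5 (x axis) and in Cy3 (y axis), for the 4892 tested features (grey) and the 5 tested metalloproteinase and TIMP genes (red). The dashed line marks equal values. Timp3 at -3.37 and -2.82 and Mmp2 at -1.33 and -0.71 lie below 0 on both axes.

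Between preparations, Timp3 had the largest difference of the 5 genes, with -3.55 in preparation A and -2.64 in preparation B. The fitted difference of A minus B was -1.01 with a 95% interval of -1.93 to -0.09, at an unadjusted p of 0.0331 by limma and an adjusted p of 0.694. In preparation A, Adamts1 had -0.77 and Timp1 -0.32, and in preparation B they had -1.16 and -0.76. Mmp2 had -0.91 in A and -1.14 in B, and Timp2 had 0.41 in A and 0.28 in B. The other 4 genes had fitted differences between 0.20 and 0.48 (limma adjusted p = 0.931 to 0.986). At an adjusted p under 0.05, 0 of the 5 genes differed between preparations, against 0.0204% of all features, and at an unadjusted p under 0.05 Timp3 alone did, against 6.75% of all features.

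**Figure D4:**
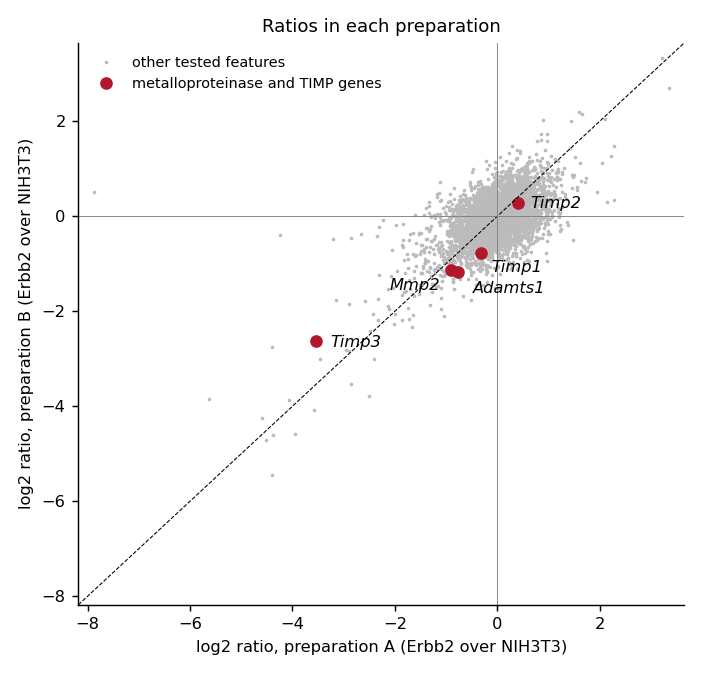
Log2 ratio of Erbb2-transfected over NIH3T3 cells in preparation A (x axis) and in preparation B (y axis) for the 4892 tested features (grey) and the 5 tested metalloproteinase and TIMP genes (red). The dashed line marks equal values. Each of the 5 genes has the same sign in both preparations, and Timp3 lies at -3.55 in A and -2.64 in B.

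Promoter sequences were available for 6 of the 7 genes, and those of the 3 TIMPs and of Adamts1 are shown because the TIMP genes differ most in their ratios and Adamts1 shares the lower ratio of Timp3. They are RefSeq sequences of build GRCm38.p6, from 250 bases before the start of the gene to 50 bases after it. Capitals mark GGGCGG, the GC box bound by SP1 and related factors, or its reverse complement CCGCCC.
Timp3 promoter, chr10:86300162-86300461, plus strand: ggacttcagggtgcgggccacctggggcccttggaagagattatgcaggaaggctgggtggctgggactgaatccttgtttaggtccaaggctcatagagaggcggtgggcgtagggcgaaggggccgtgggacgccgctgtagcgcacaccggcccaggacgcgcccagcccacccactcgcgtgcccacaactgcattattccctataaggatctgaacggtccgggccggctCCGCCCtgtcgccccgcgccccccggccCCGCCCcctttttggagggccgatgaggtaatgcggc
Timp1 promoter, chrX:20869916-20870215, plus strand: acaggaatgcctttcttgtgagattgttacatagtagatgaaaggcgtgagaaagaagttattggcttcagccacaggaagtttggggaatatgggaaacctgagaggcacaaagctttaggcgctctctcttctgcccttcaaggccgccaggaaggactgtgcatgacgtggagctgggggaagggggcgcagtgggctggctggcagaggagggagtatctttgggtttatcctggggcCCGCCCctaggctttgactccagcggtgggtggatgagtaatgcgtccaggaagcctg
Timp2 promoter, chr11:118355362-118355661, minus strand: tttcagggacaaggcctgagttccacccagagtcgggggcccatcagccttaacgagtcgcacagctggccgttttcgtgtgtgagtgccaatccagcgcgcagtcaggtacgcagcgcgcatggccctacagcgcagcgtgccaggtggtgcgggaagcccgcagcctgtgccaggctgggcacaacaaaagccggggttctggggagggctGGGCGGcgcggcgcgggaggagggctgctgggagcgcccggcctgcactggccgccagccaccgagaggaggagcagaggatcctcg
Adamts1 promoter, chr16:85803064-85803363, minus strand: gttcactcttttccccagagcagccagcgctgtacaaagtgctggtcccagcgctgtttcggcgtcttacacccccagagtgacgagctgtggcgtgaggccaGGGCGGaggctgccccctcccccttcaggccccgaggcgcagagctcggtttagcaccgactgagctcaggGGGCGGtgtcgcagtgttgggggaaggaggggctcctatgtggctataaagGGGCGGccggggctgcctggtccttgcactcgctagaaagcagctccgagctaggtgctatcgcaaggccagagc
Timp3 held 2 GC boxes, 15 bases before the start and 14 bases into the gene. Timp1 held 1 and Timp2 held 1, both before the start, and Adamts1 held 3. The same letters, on either strand, occur in 35.7% of all 32851 promoter sequences of this length. The promoters were rich in G and C, at 67.0% in Timp3, 68.7% in Timp2, 64.7% in Adamts1 and 55.0% in Timp1, against a median of 52.7% over all promoters. TGANTCA, the core site of AP-1 factors such as FOS and JUN, occurs in 7.81% of all promoters, read on both strands. It was found in none of the 4 sequences shown, while 1 of the 3 promoters listed for Adam19 held it as TGAGTCA. Only exact matches were counted, so letters close to the motif, such as tgagtaa in the Timp1 sequence, were not. The absence of TGANTCA therefore does not show that a window lacks a site for AP-1. The motifs do not overlap. Genes with a lower and with a higher ratio thus both held GC boxes in these windows.

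Other genes of extracellular proteolysis were taken from 4 lists. These were written with earlier results of these data known. The cell line p-values given below for single list genes are therefore a description and not independent support. Of all 3134 tested genes, limma called 167 lower and 68 higher at an adjusted p under 0.05, together 7.50%. In the list of other metalloproteinases, 19 of 63 genes had a value on any array and 6 were tested, of which limma called 0 at an adjusted p under 0.05 and 2 at an unadjusted p under 0.05, against 22.8% of all tested genes at the latter. Their median log2 ratio was -0.11, against -0.04 over all 3134 tested genes. Adam10, the sheddase of Notch and many receptors, had 1.03, -0.58, 0.61, 0.07 and 1.15 on A1, A2, A3, B1 and B2 and an overall value of 0.51 ± 0.14 (SD, n = 2). Adam15 had 0.04 ± 0.54, with values of both signs, and Mme, the neprilysin gene, had -0.14 ± 0.41. None of these 3 passed. Adam17, the sheddase of TNF and of several ligands of EGFR, was chosen after its values were seen and had -0.51 ± 0.12, below 0 on all 4 arrays with a value, without passing.

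Adam8, a membrane protease best known from leukocytes and invasive tumour cells, had high ratios on all of its arrays, at 4.18 on A1, 3.96 on A2, 1.28 on B1 and 2.09 on B2. All 4 values were above 1, and those of preparation A were higher than those of preparation B. On B1 it lay below Adam19. It had no value on A3 and so was not in the main test, since preparation A then lacks an orientation with Erbb2 cDNA in Cy5. When features with values in both preparations in any orientation were tested, Adam8 passed with a mean of 2.88 ± 1.69 (SD, n = 2, limma adjusted p = 0.0234), in a fit that called 1.26% of 11817 features.

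The other matrix metalloproteinases were thinly measured. Mmp9, the second gelatinase, had -0.21 and -0.83 on A1 and A2 but 0.07 and 0.30 on B1 and B2. Mmp17 had -0.69 on A3, -0.33 on B1 and -0.25 on B2. Mmp23 had 0.63 on A2 and -0.12 on B2. The collagenase genes were no better covered, since Mmp8 and Mmp13 had values on B1 alone, at 0.08 and -0.14. Adamts10 had -0.16 on A2 and -0.25 on B1, and Adamts7 had -0.07 on B1 and 0.70 on B2. None of these 7 genes entered the main test, and among them Mmp17 and Adamts10 had a single sign on more than 1 array. When any orientation was allowed, Mmp9, Mmp17, Mmp23 and Adamts10 were tested and did not pass (limma adjusted p = 0.370 to 0.801).

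Among other protease inhibitors, 15 of 29 genes had a value and 4 were tested. Of these 4, 1 fell and 0 rose, against 7.50% of all tested genes called in either direction. The gene that fell was Itih2, a heavy chain of the inter-alpha-trypsin inhibitor family, which binds hyaluronan. Itih2 had -5.61, -2.53 and -4.43 on A1, A2 and A3 but -0.49 and -0.31 on B1 and B2, so the ratio was large in preparation A only. Its mean of -2.33 ± 2.72 (SD, n = 2) passed narrowly (limma adjusted p = 0.0454), and the difference between preparations did not pass (limma adjusted p = 0.0507). Itih2 was no longer called after scaling the arrays to equal spread, after quantile normalization or when any orientation was allowed. Itih3 had 0.36 ± 0.20 and Serpina3n -0.59 ± 0.69, and neither passed. Cstb, a cystatin that inhibits cathepsins, was below 0 on its 4 arrays, between -0.69 and -0.04, and Itih1 had both signs. Both lay outside the test.

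In the list of the plasminogen system and cathepsins, 20 of 31 genes had a value and 5 were tested. These 5 had a median of -0.60, and 2 fell and 0 rose, against 7.50% of all tested genes called in either direction. Serpinf1, which encodes PEDF, a secreted serpin known for anti-angiogenic rather than protease-inhibiting activity, had -1.16 ± 0.13 (SD, n = 2, limma adjusted p = 0.00679), with single arrays from -2.01 to -0.33. Ctsa, a lysosomal carboxypeptidase that protects beta-galactosidase, had -1.15 ± 0.15 (SD, n = 2, limma adjusted p = 0.00747). Ctsd and Fap, a lysosomal aspartic protease and a membrane serine protease of activated fibroblasts, had -0.53 and -0.60 and did not pass, and Ctsb had 0.15. Ctsa was not called without A3, and neither Serpinf1 nor Ctsa was called when any orientation was allowed. Prss23, a secreted serine protease, was outside the main test with -0.56 on A1, -3.11 on A2 and -3.18 on B1. It passed when any orientation was allowed (limma adjusted p = 0.00791), although A1 stood far from A2 within the same preparation and all 3 arrays carried Erbb2 cDNA in Cy3.

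Of the activators, receptors, ligands and transcription factors linked to metalloproteinases, 27 of 50 genes had a value and 15 were tested. These 15 had a median of -0.05, and 2 rose and 0 fell, against 7.50% of all tested genes called in either direction. Cd44, the hyaluronan receptor to which MMP9 and MMP14 are known to bind, had 1.37 ± 0.34 (SD, n = 2, limma adjusted p = 0.00345) and was above 1 on all 5 arrays. Fosl1, an AP-1 subunit, had 1.16 ± 0.20 (SD, n = 2, limma adjusted p = 0.00747) and lay between 0.86 and 1.66, but was not called when any orientation was allowed. Jun, another AP-1 subunit, was above 0 on all 5 arrays, at 0.71 ± 0.03, and did not pass. It was called with the 5 arrays as replicates, among features with values on all 5 arrays, without A1, and when probes lacking an orientation were dropped. Bsg, known as an inducer of metalloproteinases, Itgb1, a collagen receptor subunit, and Lgals3 had -0.48, -0.40 and 0.59, and none of them passed. Lrp1, chosen after its values were seen, is the endocytic receptor that clears MMP2 and TIMP complexes. It had -1.52 on A2 and -1.52 on B1, both with Erbb2 cDNA in Cy3. With 1 dye orientation, a dye effect cannot be told apart from a cell line difference. Lrp1 was called when any orientation was allowed, but its choice used these values, so nothing is read from that. Over the 4 lists together, 5 of 30 tested genes passed, 16.7%, against 7.50% of all tested genes. The lists were written with earlier results of these data known, so nothing is read from that share.

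**Figure D5:**
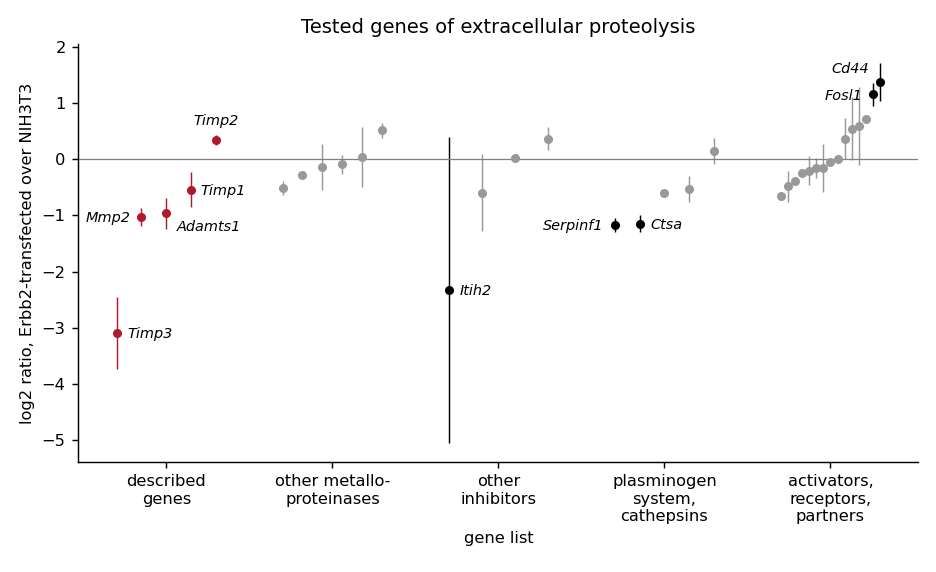
Log2 ratio of Erbb2-transfected over NIH3T3 cells (y axis) as mean ± SD of the 2 preparations, for the 5 tested metalloproteinase and TIMP genes (red) and for the tested genes of 4 further lists (x axis), black where the gene passed at an adjusted p under 0.05 and grey where it did not. The 6 tested genes of the list of other metalloproteinases lie between -0.51 and 0.51, and Itih2 has the widest error.

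Genes with the most similar profile were sought among the 2006 other genes with values on all 5 arrays, by the root mean square difference of the 5 log2 ratios. For Timp3 the nearest were Rgs2 (0.822), Pdia6 (0.936) and Igfbp4 (0.958), a regulator of G protein signalling, a disulphide isomerase and a binder of insulin-like growth factors. Rgs2 ran lower than Timp3 on 4 of 5 arrays and shared with it the value nearest to 0 on B1, at -1.83. The other 4 genes had closer neighbours. For Mmp2 they were Ctsa (0.179) and Ankrd46 (0.240), and for Adamts1 they were Pdlim5 (0.285) and Fstl1 (0.318). Timp1 was nearest to Trub2 (0.0906) and Pdlim1 (0.152), and Timp2 to Hnrnpd (0.136) and Cnbp (0.151). With 5 arrays that share 2 preparations, a small difference says only that the ratios were alike.

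Over the whole series, the arrays held values for 5368 (A1) to 17463 (B1) of the 20205 probes, and B1 was the only array with Mmp14 and Adam19. No probe was named for Erbb2 alone, so the transgene could not be checked. Of 10 fibroblast markers, 7 had a value and 5 were tested, with a median of -0.01, and limma called 0 of them at an adjusted and 3 at an unadjusted p under 0.05, against 22.8% of all tested genes at an unadjusted one. Vim, the vimentin gene, had 0.13 to 0.75. Col6a1 was lower in preparation A, at -2.01 to -1.72, than in preparation B, at -0.24 to -0.07, and Col3a1 was higher in A, at 0.69 to 2.70, than in B, at -0.64 to 0.26. By limma neither difference passed (adjusted p = 0.197 for Col6a1 and 0.609 for Col3a1). Of the markers of epithelium, leukocytes and endothelium, 5 of 7, 3 of 7 and 1 of 5 had a value, and the 2 that were tested did not pass. Ratios give no level, so the presence of other cells was not tested, and fewer cells of a type cannot be told apart from less RNA per cell.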

How the data were processed

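Values were measured on 5 two-colour cDNA arrays, 3 of preparation A and 2 of preparation B. Per the labels, the authors scanned them with a GenePix 4000A, processed the images with GenePix Pro 3.0, subtracted the background from mean intensities and scaled each array to a median ratio of 1. The deposited values are log2 ratios, as far as the values show: under base 2, and up to a constant per array, 16.5% to 57.8% of an array's values were logarithms of whole-number fractions (terms up to 300, tolerance 6e-07), against 1.70% to 2.34% under a natural logarithm. The sources used here do not say which values were left empty.

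Arrays with Erbb2 cDNA in Cy3 were sign-turned. Probes of 1 gene symbol (11723) were averaged to genes, and other probes were kept, giving 18151 features. Cell lines were compared with lmFit and eBayes (limma 3.58.1, R 4.3.3) on 2 preparation means, with 1 residual and 10.2 prior degrees of freedom, Benjamini-Hochberg adjustment and a threshold of 0.05. Dye and preparation were tested on 5 arrays. The scripts were tested on simulated data. Alternatives covered replication, centring, scaling, probes, missing values and each array left out. The members, lists and tests were chosen with earlier results of these data known. Genes named from each list are all that passed and up to 4 more with the most arrays, plus measured Mmp, Timp and Adamts genes. The number of arrays limits the precision. Figures used matplotlib 3.10.9.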

Additional observations from a re-analysis of the deposited data

Results flagged for a closer look

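Mmp9 was below 0 on both arrays of preparation A with a value, at -0.21 and -0.83, and above 0 on both arrays of preparation B, at 0.07 and 0.30, with a difference of the means (A minus B) of -0.71. It was picked out because the preparations moved in opposite directions, and Mmp9 had no value on A3. In the fit of cell line, dye and preparation terms without A3, the difference was -0.59 and did not pass (limma unadjusted p = 0.309, adjusted p = 0.998). Among the 26 named genes with values on 4 or 5 arrays, 0 had 1 array far from the others by Dixon's test.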

How the results depend on the processing

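The 332 features called between cell lines became 124 after scaling the arrays to equal spread, 193 after quantile normalization, 564 when probes lacking a value in either orientation of either preparation were dropped, 149 when any orientation was allowed, and 198 to 498 when 1 array was left out. The 5 called genes of the 4 lists became 4 after scaling and 4 after quantile normalization, in both cases without Itih2. When any orientation was allowed, 4 of 60 tested genes were called (Adam8, Cd44, Lrp1 and Prss23), so Cd44 alone remained of the 5. The count became 8 after dropping those probes (adding Fosb, Furin and Jun) and 5 to 6 without 1 array. The 29 features with a dye effect became 7 after scaling, 8 after quantile normalization, 18 after dropping those probes, 4 with values on all 5 arrays, and 2 to 256 without 1 array. The single feature that differed between preparations became 1 to 25. When any orientation was allowed, and with the 5 arrays as replicates, the dye effect and the preparation difference were not tested. With the dye term left out, only the preparation difference was tested. In each setting with such a test, 0 of the 5 tested metalloproteinase and TIMP genes had a dye effect or a preparation difference past the threshold. Of 60 values of their ratios under alternatives, 47 differed from the reported ones, of which 42 stayed within 1 SD and 0 changed sign; the others were identical. Timp3 ranged from -3.41 to -2.78, Mmp2 from -1.22 to -0.83, Adamts1 from -1.09 to -0.81, Timp1 from -0.72 to -0.37 and Timp2 from 0.21 to 0.47. Of Timp3, Mmp2 and Adamts1, only Timp3 was still called after scaling, when any orientation was allowed and without A3. Adamts1 was not called after quantile normalization or without B1, and Mmp2 was not called without B2. The cause of these changes was not tested. No paired analysis was possible because each array already pairs both lines, and terms for repetition number, dye and preparation together leave 0 residual degrees of freedom.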
